A study of Mus musculus with 23 samples.

Results

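The immediate early transcription factor genes of the FOS, JUN and EGR families were examined together with the immediate early response genes Ier2 and Ier3 in mouse brown adipose tissue (BAT). The set was chosen by gene symbol and named 9 genes, Fos, Fosb, Fosl2, Jun, Junb, Jund, Egr1, Ier2 and Ier3. Of these, 8 were among the 14651 genes of the expression table. Fosb was not in the table, which keeps genes that reached a minimum number of reads, and was not analysed here. The set was drawn up after results of these data had been seen, the low Egr1 of BAT-Mcu-KO mice at room temperature (RT) among them, so the comparison of genotypes at RT is given below as a description, without p-values for these genes.

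RNA came from the BAT of 23 male C57BL/6 mice aged 8 to 12 weeks. All of them carried Mcu[fl/fl], the floxed gene of the mitochondrial calcium uniporter. Control mice had no Cre (6 at RT, 5 at 4°C). BAT-Mcu-KO mice carried in addition 1 copy of a Cre transgene driven by the Ucp1 promoter (6 at RT, 6 at 4°C), so that only cells using this promoter were targeted. Mice were kept for 6 h at RT or at 4°C. Those in the cold were housed singly without bedding and, unless otherwise stated in the protocol, without food. The feeding state of the mice at RT was not given in the sources used here. All mice were killed with CO2 followed by cervical dislocation before the tissue was frozen.

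Immediate early genes are switched on within minutes of a stimulus from factors already present in the cell, and most of their messenger RNAs decay quickly. FOS and JUN proteins pair into the AP-1 transcription factor, whereas EGR1 is a zinc finger factor that binds GC-rich DNA. In BAT, noradrenaline released from sympathetic nerves in the cold acts through beta-adrenergic receptors, cAMP and protein kinase A, with kinases of the MAPK cascade downstream, and these routes act on CREB, SRF and ELK factors at the promoters of immediate early genes. The proteins themselves were not measured here.

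The reads on tested genes ranged from 7129271 to 21006347 per mouse. Levels are given as normalized counts, which are reads scaled by a size factor for each library. At RT the targeted gene Mcu reached 81.4 to 136 in the 6 controls against 15.2 to 42.4 in the 6 BAT-Mcu-KO mice, without overlap, and at 4°C 70.8 to 132 against 24.0 to 39.9. The brown adipocyte genes Ucp1 and Cidea were among the 8 of 8 brown adipocyte markers in the table, with a summed normalized count of 179102 or more in every mouse. Contaminating skeletal muscle varied widely, with a sum over 8 muscle markers from 7.47 to 46130. The libraries of control RT mice 1 and 2 and of BAT-Mcu-KO RT mouse 3 stood apart from their groups for several of the genes below, and results that rest on them are given with and without them.

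The genes are short. By the GENCODE M21 annotation of GRCm38, Jun on chromosome 4 (95049034 to 95052222, minus strand), Jund on chromosome 8 (70698949 to 70700616, plus strand) and Ier2 on chromosome 8 (84661331 to 84662852, minus strand) have a single exon, which makes 3 of 9 genes against 7.82% of the 13786 tested genes matched to the annotation. Fos lies on chromosome 12 (85473890 to 85477273, plus strand), Fosl2 on chromosome 5 (32135801 to 32157842, plus strand), Junb on chromosome 8 (84974484 to 84978718, minus strand), Egr1 on chromosome 18 (34859823 to 34864984, plus strand) and Ier3 on chromosome 17 (35821684 to 35822923, plus strand). Fosl2 spans 22042 bp, close to the median of 21248.5 bp over the matched genes, and the other 8 span at most 7356 bp. Ier2 and Junb lie 1.36 and 1.68 Mb from Ucp1, whose promoter drives the transgene, and 0.312 Mb from each other.

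Jun, Junb and Jund overlap another gene, and reads were counted irrespective of strand. Junb shares 7.52% of its exonic bases with Prdx2, which had a normalized count of 1742 to 3112. How reads in shared bases were counted was not given, so their effect on the Junb count is not known. Jun shares 7.28% with the antisense gene Junos, which did not exceed 22.7. Jund shares 52.6% with the antisense gene Gm11175, which is not in the table. Reads in the shared bases cannot be told apart, so the count of Jund and its level per kb may not be comparable with those of the other genes.

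The promoters of 7 of the 9 genes were matched in RefSeq (GRCm38.p6). The 150 bases upstream of the start are shown for Fos, Junb, Jun and Fosl2. Fos and Junb moved together with Egr1 between mice when pooled over all groups, a relation that rested on a few mice at RT. Jun and Fosl2 were higher in all mice in the cold than in all mice at RT. Capitals mark TGACG, the core of the cAMP response element, and TATAA in Fos, TGACG in Junb, TGACATCA, a variant AP-1 element, in Jun, and GCGNGGGCG, the EGR motif, in Fosl2. The sequences read 5′ to 3′ on the strand of the gene.
Fos, chr12:85473740-85473889, plus strand: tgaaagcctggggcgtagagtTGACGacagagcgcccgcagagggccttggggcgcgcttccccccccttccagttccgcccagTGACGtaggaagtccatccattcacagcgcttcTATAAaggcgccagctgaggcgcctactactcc
Junb, chr8:84978749-84978898, minus strand: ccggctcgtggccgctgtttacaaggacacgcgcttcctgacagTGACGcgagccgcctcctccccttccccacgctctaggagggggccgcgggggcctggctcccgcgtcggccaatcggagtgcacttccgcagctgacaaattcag
Jun, chr4:95052223-95052372, minus strand: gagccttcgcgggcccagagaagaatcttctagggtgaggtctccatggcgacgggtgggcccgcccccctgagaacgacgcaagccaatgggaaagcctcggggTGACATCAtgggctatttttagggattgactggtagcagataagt
Fosl2, chr5:32136322-32136471, plus strand: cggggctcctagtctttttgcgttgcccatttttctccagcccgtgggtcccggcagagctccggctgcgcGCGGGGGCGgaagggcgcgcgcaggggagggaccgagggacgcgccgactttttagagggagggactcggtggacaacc
The Fos promoter holds TGACG with its first base at -129 and -66 from the start site and TATAA at -33. Junb holds TGACG at -106, Jun TGACATCA at -45 and Fosl2 GCGNGGGCG at -79. On either strand, TGACG occurred in 20.8% of 32851 RefSeq promoters of the same length (250 bases before to 50 after the start), TATAA in 24.9%, TGACATCA in 3.62% and GCGNGGGCG in 5.55%. The full element TGACGTCA (1.79% of promoters, and containing TGACG), the AP-1 element TGANTCA (7.81%) and the CArG box bound by SRF (1.63%) had no match in the 7 promoters, which says only that these letters were not in these windows.

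Per kilobase of exon, the genes covered a wide range of levels. The lengths include bases shared with other genes, 52.6% for Jund, so the place of Jund in these orders is uncertain. In control mice at RT, Junb had the highest median with 172 normalized counts per kb, followed by Ier3 (101), Ier2 (68.1), Jun (64.7), Egr1 (56.7), Fos (16.2), Fosl2 (10.9) and Jund (4.20). Neighbours in this order overlapped between mice, except that Fosl2 was above Jund in every mouse, while Ier3 and Ier2 met at 77.9. In control mice at 4°C the order by median was Jun (225), Ier2 (205), Junb (135), Fosl2 (60.6), Ier3 (50.1), Egr1 (16.4), Jund (14.6) and Fos (10.6). The levels of Junb and Fosl2, and those of Ier3 and Egr1, did not overlap, whereas the other neighbours did. In BAT-Mcu-KO mice the medians went from 83.4 per kb for Ier3 down to 2.87 for Fos at RT, and down to 8.00 for Jund at 4°C, where Jun was highest with 139 to 318.

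**Figure D1:**
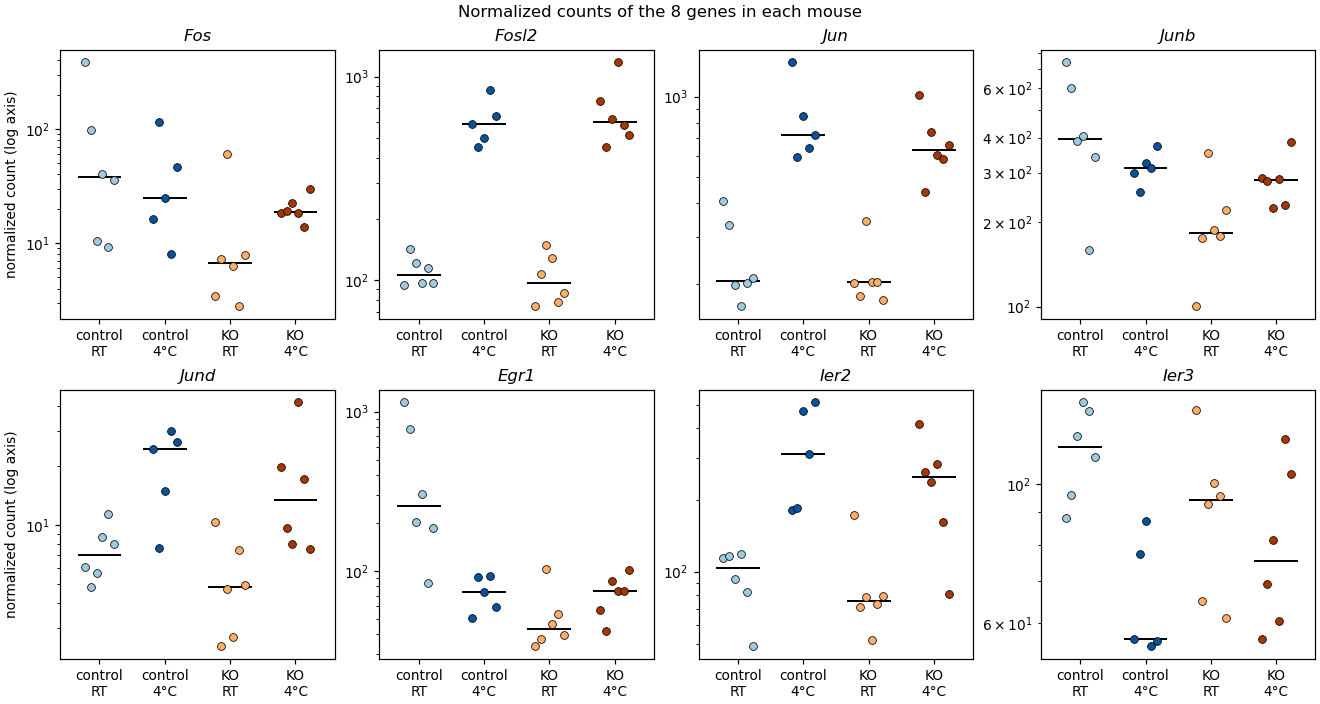
Normalized counts (log axis) of each of the 8 genes in every mouse of the 4 groups. Points are single mice in the order of their replicate numbers and horizontal bars are group medians. Fosl2 and Jun are higher in every mouse at 4°C than in every mouse at RT, and control RT mice 1 and 2 have the highest Egr1 of all mice, 1148 and 779.

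To ask how the genes respond to cold, mice at 4°C were compared with mice at RT within each genotype. Cold here stands for all conditions at 4°C, including single housing without bedding and, by protocol, no food. The parts of temperature, housing and feeding cannot be told apart. In controls, Fosl2, Jun, Ier2 and Jund rose, Egr1 and Ier3 fell, and Fos and Junb did not pass the test (limma on log2 of the normalized count plus 1, adjusted p under 0.05 over all 14651 genes). That is 4 genes higher and 2 lower of 8, beside 46% of all tested genes called, 22.3% higher and 23.7% lower. The 2 lower include Egr1, whose call reuses control mice at RT that were known when the genes were chosen. In BAT-Mcu-KO mice the 4 genes that rose were again Fosl2, Jun, Ier2 and Jund, none fell, and 43.3% of all genes were called, 21.4% higher and 21.9% lower. In whole tissue, a change in the share of a cell type and a change in RNA per cell cannot be told apart.

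Fosl2, of the FOS family, encodes FRA2, an AP-1 subunit that lacks the strong activation domain of FOS. In control mice it had normalized counts of 94.2 to 142 at RT with a median of 106, and of 587, 451, 499, 857 and 639 in the 5 mice at 4°C. The lowest mouse in the cold was over 3 times the highest at RT, and the log2 fold change reached 2.42 with a standard error (SE) of 0.21 (adjusted p = 1.149e-09, limma). Errors of later fold changes are SE too. In BAT-Mcu-KO mice it had 74.2 to 149 (median 96.6) at RT and 452 to 1178 (median 599) at 4°C. The groups again did not overlap, with a log2 fold change of 2.68 ± 0.20 (adjusted p = 8.978e-11, limma). Groups that did not overlap were seen for 25.2% of all genes in the controls and for 24.2% in BAT-Mcu-KO mice.

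Fos, the founding member of the family, differed between mice far more than between temperatures. Control mice at RT had normalized counts of 385, 97.9, 10.4, 40.3, 9.32 and 35.8, and those at 4°C had 16.2, 115, 24.9, 8.08 and 46.5. Both groups spanned more than a factor of 10 and overlapped almost fully, and the log2 fold change of -0.56 ± 0.76 had a 95% interval from -2.15 to 1.03 (adjusted p = 0.5736, limma). Its sign rested on the control mice with the highest values: without RT mouse 1 it was 0.07, and without RT mice 1 and 2 it was 0.52.

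In BAT-Mcu-KO mice, Fos had 3.45, 7.24, 60.1, 6.27, 2.79 and 7.90 at RT and 18.4, 19.3, 22.4, 18.3, 13.9 and 30.0 at 4°C. Apart from RT mouse 3 with 60.1, all mice at RT lay below all mice in the cold. The log2 fold change was 1.20 ± 0.72 and did not pass the test (adjusted p = 0.1896, limma). Leaving out RT mouse 3 gave 1.76 and an adjusted p of 0.0419 (limma; 0.0419 to 0.692 over the alternatives). The values at RT rest on 3 to 64 reads per mouse.

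In the JUN family, Jun, the principal AP-1 partner of FOS, rose in both genotypes. Control mice had 165 to 409 (median 206) at RT and 1345, 596, 849, 643 and 718 at 4°C. All cold mice exceeded all mice at RT, also RT mice 1 and 2 with 409 and 333, and the log2 fold change was 1.72 ± 0.23 (adjusted p = 1.418e-06, limma). BAT-Mcu-KO mice had 175 to 345 (median 203) at RT and 443 to 1015 (median 634) at 4°C. These groups did not overlap either, with a log2 fold change of 1.62 ± 0.22 (adjusted p = 1.91e-06, limma).

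Junb, an AP-1 subunit with weaker activation than JUN, did not pass the test in either genotype. Control mice had 159 to 743 (median 396) at RT and 299, 255, 325, 311 and 374 at 4°C, so that the cold mice lay inside the range at RT. The log2 fold change was -0.35 ± 0.28 (95% interval -0.94 to 0.24, adjusted p = 0.3289, limma). It was 0.03 without RT mice 1 and 2, and -0.61 without RT mouse 5, which has the lowest value, where it passed the test (adjusted p = 0.0397, limma; 0.0397 to 0.944 over the alternatives). BAT-Mcu-KO mice had 100 to 353 (median 183) at RT and 225 to 387 (median 282) at 4°C. The log2 fold change of 0.55 ± 0.27 (adjusted p = 0.1008, limma) became 0.73 without RT mouse 3 (adjusted p = 0.0272, limma; 0.0272 to 0.269 over the alternatives). It also passed the test without control RT mouse 5, which left the fold change as it was.

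Jund, the JUN protein most often found in resting cells, was counted with 2 to 46 reads per mouse. Control mice had 4.85 to 11.4 (median 7.01) at RT and 24.3, 7.59, 14.9, 30.1 and 26.5 at 4°C. All but cold mouse 2 exceeded every mouse at RT, with a log2 fold change of 1.27 ± 0.42 (adjusted p = 0.01633, limma). The call was lost without control 4°C mouse 4 (1.10, adjusted p = 0.0528, limma) and without RT mice 1 and 2 (1.10, adjusted p = 0.0723, limma; 0.00413 to 0.0723 over the alternatives). BAT-Mcu-KO mice had 2.41 to 10.4 (median 4.82) at RT and 7.51 to 42.1 (median 13.3) at 4°C, with overlapping groups and a log2 fold change of 1.39 ± 0.40 (adjusted p = 0.007095, limma).

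Egr1 fell in control mice, where 23 of 35 other immediate early genes rose, beside 22.3% of all genes. Its normalized counts at RT were 1148, 779, 203, 306, 83.9 and 186, and those at 4°C were 50.6, 91.1, 73.4, 93.3 and 59.3. Only RT mouse 5 with 83.9 lay within the range of the cold mice. The log2 fold change was -2.10 ± 0.44 (adjusted p = 0.0003616, limma), a fold of 4.27, and without RT mice 1 and 2 it was -1.29 (adjusted p = 0.00316, limma; 9.821e-07 to 0.00316 over the alternatives). This comparison uses the same control mice at RT as the comparison of genotypes that was known when the genes were chosen. Its p-value is thus not that of an independent test, and the fall is given as a description. In BAT-Mcu-KO mice Egr1 was 33.7, 37.4, 102, 46.6, 53.9 and 39.5 at RT and 42.1 to 102 (median 74.7) at 4°C. The groups overlapped, with a log2 fold change of 0.52 ± 0.42 (95% interval -0.36 to 1.40, adjusted p = 0.3387, limma).

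Ier2, a nuclear regulator of transcription induced by growth factors, rose in both genotypes. Control mice had 48.7 to 119 (median 104) at RT and 182, 185, 472, 312 and 514 at 4°C, without overlap and with a log2 fold change of 1.72 ± 0.35 (adjusted p = 0.0002604, limma). BAT-Mcu-KO mice had 52.0 to 173 (median 75.7) at RT and 80.9 to 415 (median 250) at 4°C. Cold mouse 6 with 80.9 and cold mouse 5 with 162 lay below RT mouse 1 with 173, and the log2 fold change was 1.38 ± 0.33 (adjusted p = 0.001526, limma).

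Ier3, which protects cells from death signals and sustains ERK signalling, fell in control mice. It had 88.1 to 135 (median 115) at RT and 56.6, 77.4, 87.1, 55.1 and 56.1 at 4°C. The groups did not overlap, the highest cold mouse reaching 87.1 against 88.1 for the lowest at RT, and the log2 fold change was -0.77 ± 0.21 (adjusted p = 0.003664, limma). In BAT-Mcu-KO mice it had 61.2 to 131 (median 94.4) at RT and 56.5 to 118 (median 75.4) at 4°C. Here the log2 fold change was -0.16 ± 0.20 (95% interval -0.58 to 0.25, adjusted p = 0.5382, limma).

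**Figure D2:**
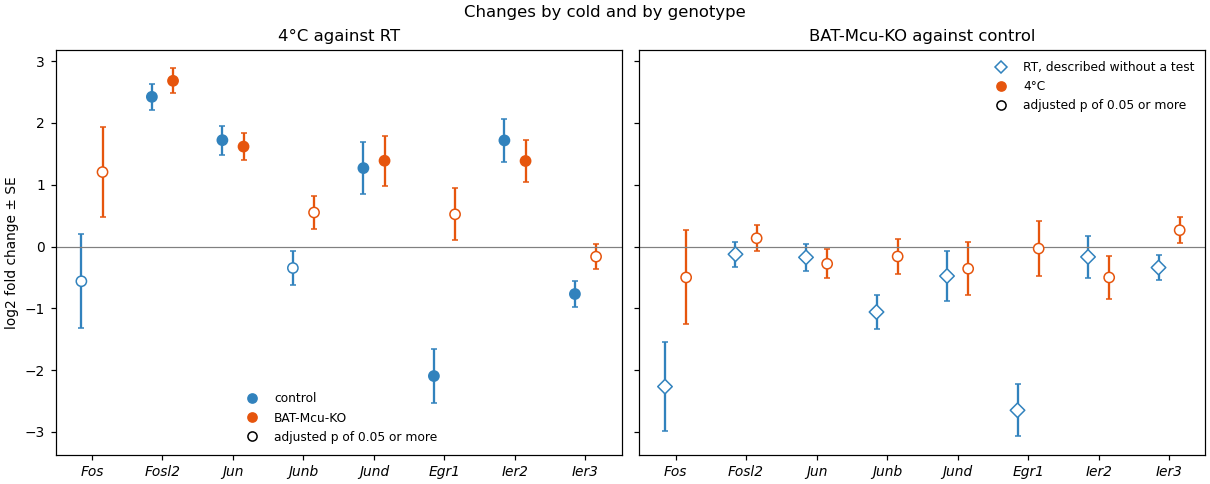
Log2 fold changes of the 8 genes with their standard errors from limma over 23 mice, by cold within each genotype (left) and by genotype at each temperature (right). Filled circles have an adjusted p under 0.05, and the open diamonds of genotype at RT carry no test, since that comparison was known when the genes were chosen. The filled circle of Egr1 by cold in controls uses the same control mice at RT and is a description. Fosl2, Jun, Jund and Ier2 are raised by cold in both genotypes, Egr1 and Ier3 are lowered in control mice, and no circle for genotype at 4°C is filled.

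Next, BAT-Mcu-KO mice were compared with controls kept at RT, which asks whether the resting level of the genes differs by genotype. Controls had no Cre, so loss of Mcu and presence of the transgene cannot be told apart. Of the 8 genes, 1 was called, Egr1, beside 7 of all 14651 tested genes or 0.0478%. Since Egr1 entered the set through this comparison, nothing is read from that count. Control mice had 451 ± 420 normalized counts of Egr1 and BAT-Mcu-KO mice 52.2 ± 25.6 (mean ± SD, n = 6 each), and 5 of 6 BAT-Mcu-KO mice lay below every control. For none of the 8 genes were the genotypes without overlap, beside 0.218% of all genes. BAT-Mcu-KO RT mouse 3 with 102 lay above control RT mouse 5 with 83.9. The log2 fold change was -2.65 ± 0.42, and -1.84 without control RT mice 1 and 2.

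Fos followed a similar pattern at lower levels, with 96.5 ± 145 in controls and 14.6 ± 22.4 in BAT-Mcu-KO mice, and 5 of 6 BAT-Mcu-KO mice below every control. The log2 fold change was -2.27 ± 0.72, and -1.18 without control RT mice 1 and 2. Junb had 439 ± 205 in controls and 203 ± 83.7 in BAT-Mcu-KO mice, with a log2 fold change of -1.06 ± 0.27 and -0.68 without the same 2 mice. Neither was among the genes called. For the other 5 genes the log2 fold change lay between -0.48 ± 0.40 for Jund and -0.12 ± 0.20 for Fosl2.

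At 4°C none of the 8 genes was called between genotypes (limma, adjusted p of 0.8175 or more), beside 0.0751% of all genes. At an unadjusted p under 0.05 limma counted 0 of the 8, beside 6.98% of all genes, and DESeq2 and edgeR on the recovered reads also called 0. None of the 8 was without overlap between genotypes, beside 0.683% of all genes. Egr1 had 73.5 ± 18.9 in 5 controls and 72.7 ± 21.2 in 6 BAT-Mcu-KO mice in the cold, a log2 fold change of -0.03 ± 0.44 with a 95% interval from -0.96 to 0.89. Fos had 42.2 ± 43.3 and 20.4 ± 5.44 (log2 fold change -0.50, 95% interval -2.09 to 1.09). In the cold the spread of Fos was small in BAT-Mcu-KO mice, from 13.9 to 30.0, against 8.08 to 115 in controls, and this difference in spread was not tested. The intervals of the other 6 genes all held 0, the widest being that of Jund from -1.25 to 0.53. The intervals were wide enough to hold a doubling or a halving for Fos and a halving for Jund and Ier2.

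The test of the difference between the 2 cold responses called no gene of 14651 with limma (0%) and none with edgeR. DESeq2 called 28 genes, of which Egr1 was 1. At an unadjusted p under 0.05, limma counted 878 genes, or 5.99%. This difference is built in part from the comparison of genotypes at RT, so it too is given for the 8 genes as a description, and nothing is read from the call by DESeq2. It was 2.62 ± 0.61 on the log2 scale for Egr1, 1.77 ± 1.05 for Fos and 0.90 ± 0.39 for Junb. For Ier3 it was 0.60 ± 0.29. For the genes raised by cold, the difference between genotypes was 0.26 ± 0.29 for Fosl2, -0.10 ± 0.32 for Jun, 0.12 ± 0.59 for Jund and -0.33 ± 0.49 for Ier2.

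Pooled over all groups, 3 of the genes rose and fell together around their group means. Each value was set against the mean of its group, and the deviations were correlated over the 23 mice, with a two-sided permutation test that shuffled mice within groups 100000 times. Of 28 pairs, 3 passed after adjustment over the 28 pairs. The comparison of genotypes at RT, known when the genes were chosen, used the same RT mice, so these p-values are a description. Junb and Egr1 had a Pearson r of 0.792 (permutation p = 0.00055, adjusted p = 0.0154) and a Spearman rho of 0.504 (permutation p = 0.0318, adjusted p = 0.223). Fos and Egr1 had an r of 0.749 (permutation p = 0.0011, adjusted p = 0.0154) and a rho of 0.572 (permutation p = 0.0133, adjusted p = 0.158). Fos and Junb had an r of 0.701 (permutation p = 0.0038, adjusted p = 0.0355) and a rho of 0.614 (permutation p = 0.0055, adjusted p = 0.154).

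By rank, then, none of the 28 pairs passed. Without the 2 mice farthest from the median of the first gene of the pair, r was 0.706 for Junb and Egr1, 0.536 for Fos and Egr1 and 0.466 for Fos and Junb. Leaving out control RT mouse 1, 2 or 5 or BAT-Mcu-KO RT mouse 3, one at a time, left 0 pairs past the threshold, and without control RT mouse 4 there was 1. The relations thus rest on these mice. Without both control RT mice 1 and 2, the r of the same 3 pairs was 0.665, 0.537 and 0.535 and none passed.

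The mice at the ends of the relation were the same for several genes. Control RT mouse 1 was the highest of its group for 4 of the 8 genes (Fos, Jun, Junb and Egr1), and it was the lowest for Fosl2 and Ier3. Control RT mouse 5 was the lowest for Fos, Junb and Egr1 and the highest for Jund. BAT-Mcu-KO RT mouse 3 was the highest of its group for 5 genes, Fos, Fosl2, Jun, Junb and Egr1, and it also had the highest skeletal muscle sum of all mice, 46130. BAT-Mcu-KO RT mice 4 and 6 had muscle sums of 32865 and 36788 with Fos at 6.27 and 7.90. The part of muscle in the values of mouse 3 was not tested. Among the 4 genes that rose by cold in both genotypes, no pair passed, and r went from 0.0289 for Jun and Jund to 0.431 for Jund and Ier2.

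**Figure D3:**
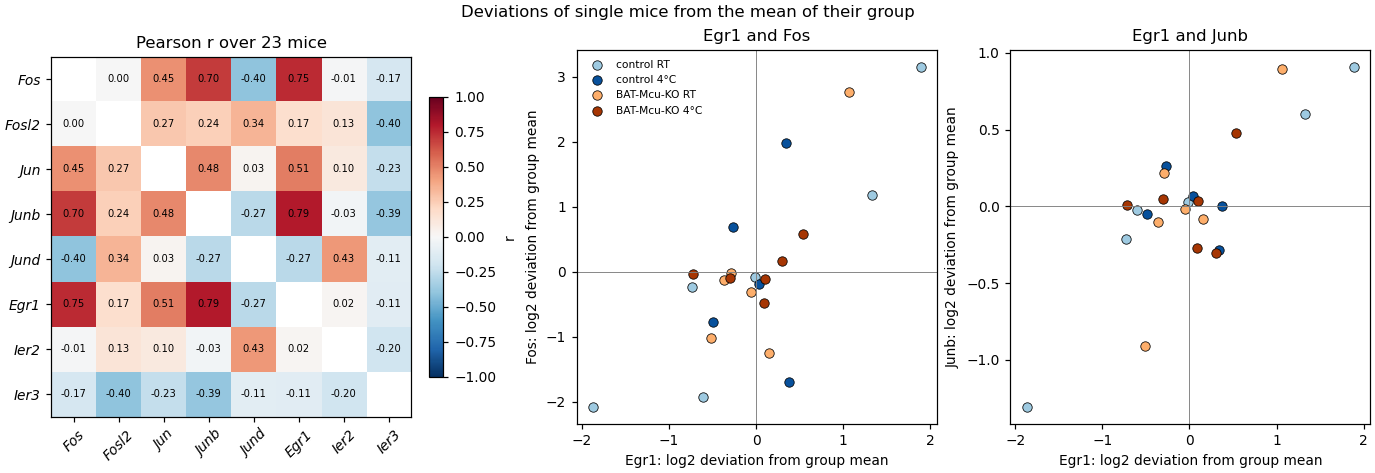
Pearson r between the deviations of the 8 genes from their group means on the log2 scale over 23 mice (left), and the deviations of single mice for Egr1 with Fos and for Egr1 with Junb. Control RT mice lie at both ends of the 2 scatter plots, where r is 0.749 and 0.792.

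The 9525 other genes with a mean normalized count of at least 50 were searched for those whose deviations were most like those of Fos and of Egr1, as a description. For Egr1 these were Map3k1, a kinase at the head of MAPK cascades (r = 0.765), Tmem38b, an ion channel of the endoplasmic reticulum (0.747), Perm1, a regulator of mitochondrial genes in muscle (0.730), Egln3, a prolyl hydroxylase that acts on hypoxia-inducible factors (0.710), and Dusp1, an immediate early phosphatase of MAP kinases (0.707). Without control RT mice 1 and 2, r was 0.671 for Map3k1, 0.576 for Egln3, 0.543 for Tmem38b, 0.488 for Dusp1 and 0.340 for Perm1. For Fos they were Vdac3, a channel of the outer mitochondrial membrane (0.766), Ptp4a2, a phosphatase (0.736), Trim35 (0.734), Pcmt1, a protein repair methyltransferase (0.717), and Bbip1, a ciliary trafficking protein (0.715). Without the same 2 mice, r for Fos went from 0.536 for Ptp4a2 to 0.670 for Vdac3. All these genes were picked as the highest of 9525, and whether such values exceed chance was not tested.

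Other immediate early genes gave the frame for the cold response. Of 40 such genes listed, 35 were in the table. In control mice 23 of the 35 rose by cold and 1 fell, beside 22.3% of all genes higher and 23.7% lower. In BAT-Mcu-KO mice 24 rose and 1 fell, beside 21.4% higher and 21.9% lower. The median log2 fold change was 1.27 and 1.19 against -0.02 over all genes in both. Atf3, a stress-induced partner of JUN, rose by 5.49 ± 0.37 in controls (adjusted p = 1.207e-11, limma) and by 3.78 ± 0.35 in BAT-Mcu-KO mice (adjusted p = 2.99e-09, limma). The orphan nuclear receptors Nr4a3 and Nr4a1 rose by 4.73 ± 0.51 and 4.26 ± 0.41 in controls, and by 5.42 ± 0.49 and 3.69 ± 0.39 in BAT-Mcu-KO mice. The growth regulator Myc was the gene that fell in BAT-Mcu-KO mice (log2 fold change -1.34 ± 0.51), and Klf10 in controls (-0.67 ± 0.26). The call of Myc was lost in 12 of 35 alternatives, DESeq2 and edgeR among them, and that of Klf10 in 11 of 36. None of the 35 was called by genotype at either temperature, beside 0.0478% of all genes at RT and 0.0751% at 4°C. Gadd45b had the smallest p at RT (log2 fold change 1.57 ± 0.45, adjusted p = 0.712, limma) and Atf3 at 4°C (-1.02 ± 0.37, adjusted p = 0.5697, limma). Atf3 also had the smallest p of the list for the difference between the cold responses (-1.71 ± 0.51, adjusted p = 0.7126, limma).

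**Figure D4:**
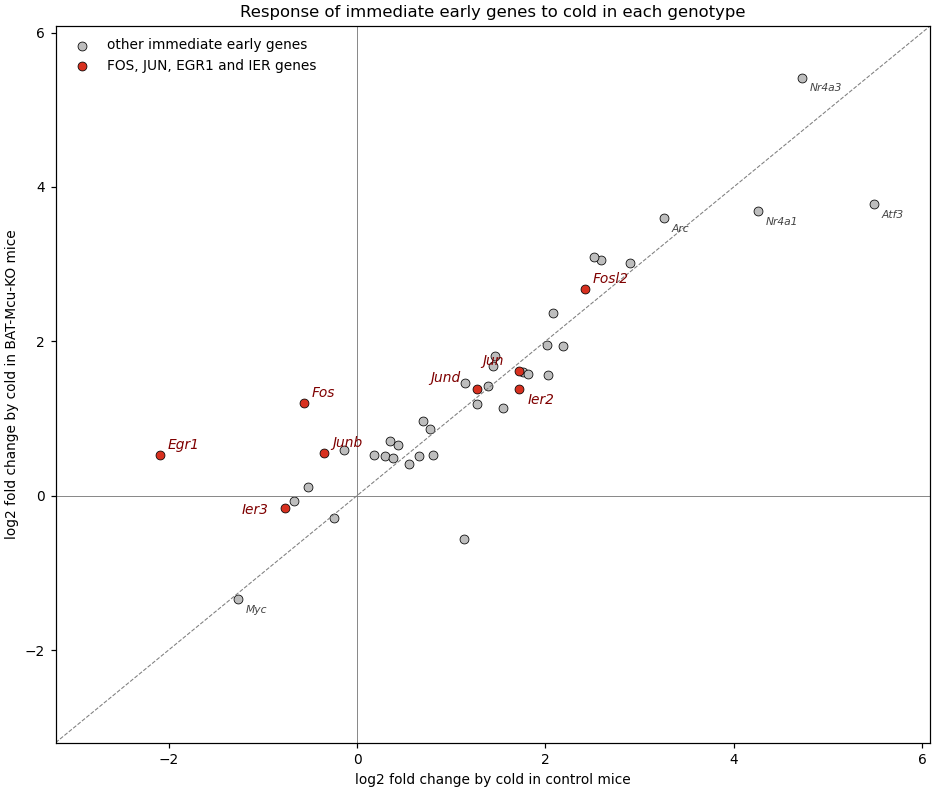
Log2 fold change by cold in control mice (x axis) against that in BAT-Mcu-KO mice (y axis) for the 8 genes (red) and 35 other immediate early genes (grey), with the dashed line of equal change. Fosl2, Jun, Jund and Ier2 lie near the line, and Egr1 lies at -2.10 and 0.52.

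Of 28 kinases and factors that act upstream of the genes, 8 rose and 6 fell by cold in controls, and 6 rose and 5 fell in BAT-Mcu-KO mice, beside 46% and 43.3% of all genes called. Crem, a cAMP-responsive regulator of the CREB family, rose by 1.65 ± 0.12 and 1.79 ± 0.11, and the serum response cofactor Elk1 by 0.84 ± 0.16 and 0.84 ± 0.15. Rps6ka5, the kinase MSK1, fell by 1.19 ± 0.19 and 1.07 ± 0.19 on the log2 scale, and Mkl2, a coactivator of SRF, fell by 0.86 ± 0.11 and 0.77 ± 0.11. In controls Atf1 rose by 1.01 ± 0.14 and Rps6ka1 fell by 1.13 ± 0.38, a call that was lost without control RT mice 1 and 2 (log2 fold change -1.004) and without control 4°C mouse 1 (-0.92). In BAT-Mcu-KO mice Crebbp rose by 0.57 ± 0.08 and Prkaca, the catalytic subunit of protein kinase A, fell by 0.91 ± 0.14. None of the 28 was called by genotype, beside 0.0478% of all genes at RT and 0.0751% at 4°C.

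Among 15 dimer partners and corepressors in the table, of 17 listed, 4 rose and 2 fell in controls and 5 rose and 3 fell in BAT-Mcu-KO mice, beside 46% and 43.3% of all genes called. Atf4, the effector of the integrated stress response, rose by 2.30 ± 0.11 in controls and by 1.88 ± 0.10 in BAT-Mcu-KO mice. It was the 1 gene of these lists that was called by genotype, at 4°C, where it was lower in BAT-Mcu-KO mice (log2 fold change -0.66 ± 0.11, adjusted p = 0.01511, limma). The call was lost when only the 2 groups compared were fitted (adjusted p = 0.243, limma; 5.609e-05 to 0.243 over the alternatives). Atf2, a partner of JUN, rose by 0.93 ± 0.10 in controls and by 0.75 ± 0.09 in BAT-Mcu-KO mice. Nab1, which encodes a corepressor of EGR1, fell by 0.70 ± 0.20 in controls and by 0.64 ± 0.19 in BAT-Mcu-KO mice, and Atf7 fell by 0.33 ± 0.11 and 0.52 ± 0.11. Nfe2l1, a bZIP factor that drives proteasome genes, fell in BAT-Mcu-KO mice by 0.31 ± 0.10.

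Of 20 textbook targets of AP-1 and EGR1, 15 were in the table. By cold, 8 rose and 3 fell in controls, and 7 rose and 3 fell in BAT-Mcu-KO mice, beside 22.3% and 21.4% of all genes higher and 23.7% and 21.9% lower. Hmox1, the heme-degrading enzyme, rose by 4.21 ± 0.29 and 3.11 ± 0.27, the urokinase receptor gene Plaur by 1.83 ± 0.37 and 1.59 ± 0.35, and the adhesion molecule gene Icam1 by 1.69 ± 0.23 and 1.56 ± 0.22. The growth factor genes Fgf2 and Pdgfa fell by 1.16 ± 0.30 and 0.96 ± 0.22 in controls and by 1.15 ± 0.28 and 0.61 ± 0.21 in BAT-Mcu-KO mice, where the call of Pdgfa was lost with quantile normalization (log2 fold change -0.48) and without RT mouse 2 (-0.53). The protease gene Plau fell by 0.92 ± 0.28 and 1.19 ± 0.27. With limma no target was called by genotype, the smallest p at 4°C being that of Hmox1 (log2 fold change -1.14 ± 0.29, adjusted p = 0.2534, limma). Hmox1 was called there with DESeq2 (-1.26, adjusted p = 0.0351) and without control 4°C mouse 2 (-1.45, adjusted p = 0.0461, limma; 0.0351 to 0.657 over the alternatives).

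Heat shock genes and markers of other cells were followed beside these results. Of 8 genes for heat shock proteins and related stress markers, 6 rose in controls and 7 in BAT-Mcu-KO mice, Hspa8, a constitutive chaperone, by 2.81 ± 0.15 and 2.43 ± 0.15 and the inducible Hspa1a by 3.62 ± 0.53 and 2.25 ± 0.50. Of 8 macrophage markers, 2 rose in controls and 5 in BAT-Mcu-KO mice, beside 22.3% and 21.4% of all genes, with a summed normalized count of 738 to 1087 at RT and 904 to 1382 at 4°C in controls and of 561 to 1043 and 1203 to 1549 in BAT-Mcu-KO mice. Of 8 endothelial markers, 3 rose in either genotype, while 2 fell in controls and 1 in BAT-Mcu-KO mice. Their sum was 3767 to 5256 at RT and 6230 to 10531 at 4°C in controls, and 3987 to 5420 and 5827 to 9724 in BAT-Mcu-KO mice, so that cold mice lay above all mice at RT. Smooth muscle and pericyte markers gave 1 higher and 4 lower of 8 in controls and 2 higher and 3 lower in BAT-Mcu-KO mice. Schwann cell and nerve markers gave 1 and 3 lower of 7, brown adipocyte markers 3 higher and 4 lower of 8 in controls and 2 higher and 2 lower in BAT-Mcu-KO mice, and fibroblast markers 0 of 8 and 1 higher of 8. Only 2 of 8 lymphocyte markers were in the table, of which 1 was lower in BAT-Mcu-KO mice in the cold, whereas Cd3e, Cd4 and Cd8a were not in it. None of the markers of skeletal muscle or blood was called. Beside all these counts by cold stand 22.3% and 21.4% of all genes higher and 23.7% and 21.9% lower. None of any marker list was called by genotype, beside 0.0478% of all genes at RT and 0.0751% at 4°C. Over 23 mice, the deviations of Jun correlated most with the smooth muscle and pericyte sum (r = 0.559), those of Jund with the endothelial sum (0.521) and those of Fos with the blood sum (0.427), given as a description. The part of these cells in the results was not tested.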

How the data were processed

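BAT RNA of 23 mice was analysed in 4 groups of genotype and temperature, with group and replicate number taken from the sample labels. Smart-seq2 libraries were sequenced as 2 × 25 bp paired-end reads. The authors aligned the reads with STAR 2.4.0j to mm10 (GENCODE M7) and counted uniquely mapped reads in exons irrespective of strand with HTSeq. Genes were kept that had 8 or more reads in 6 or more samples. The deposited signal is the count of each gene divided by the DESeq2 size factor of the sample. Short reads and unique mapping lower the counts of genes with near-identical copies. A second deposited table holds only the authors' comparisons and was not used. All columns of samples were used (0 left out).

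Values were tested as log2(normalized count + 1) with limma 3.58.1 (R 4.3.3), with a variance trend, 1 mean for each of the 4 groups, and Benjamini-Hochberg adjustment over 14651 genes. Fold changes are on this scale, which understates those of low genes such as Jund and Fos. Whole reads were recovered from the steps of the values (100% of values whole within 0.01) and tested with edgeR 4.0.16 and DESeq2 1.42.0 as alternatives. Reads on tested genes were 7129271 to 21006347 per mouse, and 3 reads correspond to 1.97 to 6.07 normalized counts. The 95% intervals use the t distribution with 19 residual degrees of freedom. They cover the spread between mice, which were separate animals. Of the 36 pairs of 9 genes planned for co-variation, 28 could be computed, since Fosb was not in the table. The gene-wise tests were tested on simulated data. The labels give no batch.

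Members and gene lists were chosen with earlier results of these data known. Named genes were all members, the 3 called genes with the largest rise and the 3 with the largest fall by cold in each list, called genes or else the one with the smallest p for genotype, and the 5 genes most like Fos and Egr1. A gene that this rule named is not reported here. Gene positions and lengths came from GENCODE M21, of the same build as mm10. Markers of the stress list were heat shock and RNA turnover genes.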

Additional observations from a re-analysis of the deposited data

Results flagged for a closer look

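Dixon's test at the 95% level was run on 32 combinations of a gene and a group, of which chance flags about 1 in 20, and 3 stood out. In BAT-Mcu-KO RT mouse 3, Fos had a normalized count of 60.1, far above the other 5 mice of its group, of which the highest had 7.90. The same mouse stood out for Jun with 345, where the next mouse had 204. In BAT-Mcu-KO RT mouse 1, Ier2 had 173 and the next mouse 79.0. Fos and Jun in mouse 3 come from 1 library and are not separate observations. That mouse had 13789566 reads on tested genes, within the range of its group.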

How the results depend on the processing

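Counts of the 8 genes for genotype at RT are a description, since that comparison was known when the genes were chosen. Nothing is read from them. The number of the 8 genes called between genotypes at RT was 1, and it became 0 (Egr1 was lost) when the fit held only these 2 groups and 2 (Junb was added) with DESeq2 on whole reads. Leaving out each mouse in turn gave 1 to 2, the 2 without control RT mouse 5, which added Junb. Over all genes, 7 were called by genotype at RT and 11 at 4°C, against 3 and 2 with these 2 groups alone and 20 and 27 with DESeq2, which called 28 for the difference against 0. For the difference between the cold responses it was 0 and became 1 with DESeq2. Pairs of genes that moved together, pooled over all groups, were 3. There were 0 by Spearman's rho, 0 without both control RT mice 1 and 2 (chosen after seeing the data), and 0 to 4 when each mouse was left out. The replicate numbers do not pair the mice: same-numbered mice of 2 groups correlated on average by -0.10 to 0.12 in their deviations, and at most 3 of 5 correlated best with their own number. Under a replicate block the genes called numbered 1 for genotype at RT, 0 at 4°C, 6 for cold in controls, 4 for cold in BAT-Mcu-KO mice and 0 for the difference, as without it. Signs turned without control RT mice 1 and 2 for Fos (0.52) and Junb (0.030) by cold in controls and for Jun by genotype at RT (0.13), with a pseudocount of 10 for Jund in the difference (-0.032), with quantile normalization for Mcu by cold in BAT-Mcu-KO mice (0.16), and for Mcu in the difference with DESeq2 (-0.045) and edgeR (-0.040), none of which was called. Leaving out single mice turned more uncalled signs: Egr1 by genotype at 4°C (-0.16 to 0.11), Fos by cold in controls (-1.06 to 0.068), Fosl2 by genotype at 4°C (-0.037 to 0.27), Jun in the difference (-0.26 to 0.086), Jund in the difference (-0.18 to 0.31), Mcu by cold in BAT-Mcu-KO mice (-0.22 to 0.086), Mcu by cold in controls (-0.14 to 0.088), Mcu in the difference (-0.17 to 0.14), Ucp1 by genotype at 4°C (-0.11 to 0.011). Of the 8 genes, leaving out single mice left the sign and side of the threshold as they were in 899 cases, turned the sign in 15, added the call in 5 and lost it in 1. With 75th percentile scaling the median of all genes shifted by -0.13 by cold in controls. Jund and the resting Fos of BAT-Mcu-KO mice rest on a few reads, and Jund also shares 52.6% of its exonic bases with another gene. The causes of these changes were not tested.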
